A study of Homo sapiens with 28 samples.

Results

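The 45 genes described here encode the machinery that copies DNA and the enzymes that supply its building blocks: the proteins that license and fire replication origins, the polymerases, the sliding clamp and its loader, the factors that finish the lagging strand, the makers of deoxynucleotides, and the factors that rebuild chromatin behind the fork. The members were picked by gene symbol, as a list drawn up with earlier results of these data known, and each matched 1 row of a table of 61815 human genes. RNA was measured in LNCaP cells, an established androgen-responsive human prostate cancer line, after 72 h in medium with charcoal-stripped serum, which holds little steroid hormone. All 28 libraries come from that 1 line and share this androgen deprivation, and the vehicle was 0.1% DMSO. The 24 h experiment had 4 groups of 3 libraries: vehicle, the CDK8/19 inhibitor Senexin B at 1 µM, the synthetic androgen R1881 at 0.1 nM, and R1881 with Senexin B. The 72 h experiment had 4 groups of 4 libraries: vehicle, the CDK8/19 inhibitor SNX631 at 500 nM, R1881 at 1 nM, and R1881 with SNX631. CDK8 and CDK19 are the kinases of the module that binds the Mediator complex of transcription. Doses are those of the labels, and the study's text gives a higher dose of Senexin B, so the dose in these libraries is uncertain. The experiments therefore differ in duration, amount of androgen and compound together, whose parts cannot be told apart.

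DNA replication begins when the origin recognition complex, CDC6 and CDT1 load the MCM2-7 helicase onto origins in G1 phase, and it fires when CDC45, the GINS complex and MCM10 turn that helicase on at the start of S phase. Most genes of this machinery are transcribed periodically under the E2F family of transcription factors, which the retinoblastoma protein holds back in resting cells, whereas genes for mitosis are transcribed later in the cycle. Androgen-dependent prostate cancer cells deprived of androgen largely stop in G1, and low doses of androgen let them re-enter the cycle. In RNA from whole cultures, a larger share of cells in S phase and more of a transcript in each cell cannot be told apart.

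The promoters of 6 members are shown because these genes mark the ends of the androgen response described below: CDC6, CDC45, MCM10, UHRF1 and RRM2 had the 5 largest effects of R1881 at 24 h, and RPA1 had the smallest. Each runs 5′ to 3′ on the strand of the gene, from 250 bases before to 50 bases after the RefSeq start site, on build GRCh38.p14, and all are on the plus strand. Capitals mark the E2F-type words TTTGGCGC, TTTCCCGC, TTTCGCGC and TTTGCCGC and the related word TTTGGCGG, read on either strand.
CDC6 at chr17:40287629-40287928: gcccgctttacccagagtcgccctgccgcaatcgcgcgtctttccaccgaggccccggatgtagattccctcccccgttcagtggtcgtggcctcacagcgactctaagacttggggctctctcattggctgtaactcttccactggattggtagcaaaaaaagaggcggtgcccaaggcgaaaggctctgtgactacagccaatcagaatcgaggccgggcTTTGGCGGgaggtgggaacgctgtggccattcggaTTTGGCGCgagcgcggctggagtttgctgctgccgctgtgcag
CDC45 at chr22:19479670-19479969: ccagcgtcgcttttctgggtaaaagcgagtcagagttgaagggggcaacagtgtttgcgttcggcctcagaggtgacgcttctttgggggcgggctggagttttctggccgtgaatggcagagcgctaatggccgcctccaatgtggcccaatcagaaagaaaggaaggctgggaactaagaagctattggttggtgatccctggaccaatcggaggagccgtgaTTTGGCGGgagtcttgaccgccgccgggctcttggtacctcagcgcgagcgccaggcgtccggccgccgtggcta
MCM10 at chr10:13161308-13161607: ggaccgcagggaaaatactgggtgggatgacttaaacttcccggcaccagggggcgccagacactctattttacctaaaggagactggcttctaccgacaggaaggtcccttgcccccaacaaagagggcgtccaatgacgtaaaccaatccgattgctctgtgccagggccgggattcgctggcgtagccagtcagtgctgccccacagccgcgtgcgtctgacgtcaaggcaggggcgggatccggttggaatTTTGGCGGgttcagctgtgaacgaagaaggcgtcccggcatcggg
UHRF1 at chr19:4909251-4909550: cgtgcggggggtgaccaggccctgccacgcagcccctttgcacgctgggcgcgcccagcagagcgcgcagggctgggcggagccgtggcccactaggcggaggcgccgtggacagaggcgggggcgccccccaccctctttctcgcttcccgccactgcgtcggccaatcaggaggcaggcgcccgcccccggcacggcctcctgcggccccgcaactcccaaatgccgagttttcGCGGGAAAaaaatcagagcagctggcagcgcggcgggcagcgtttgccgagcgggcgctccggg
RRM2 at chr2:10122489-10122788: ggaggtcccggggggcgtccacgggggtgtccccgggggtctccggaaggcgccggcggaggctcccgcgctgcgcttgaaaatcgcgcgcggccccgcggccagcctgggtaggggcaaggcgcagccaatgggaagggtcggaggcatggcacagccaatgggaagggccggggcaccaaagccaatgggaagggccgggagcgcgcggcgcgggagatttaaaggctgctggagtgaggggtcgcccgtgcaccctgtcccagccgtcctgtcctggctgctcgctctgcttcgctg
RPA1 at chr17:1829755-1830054: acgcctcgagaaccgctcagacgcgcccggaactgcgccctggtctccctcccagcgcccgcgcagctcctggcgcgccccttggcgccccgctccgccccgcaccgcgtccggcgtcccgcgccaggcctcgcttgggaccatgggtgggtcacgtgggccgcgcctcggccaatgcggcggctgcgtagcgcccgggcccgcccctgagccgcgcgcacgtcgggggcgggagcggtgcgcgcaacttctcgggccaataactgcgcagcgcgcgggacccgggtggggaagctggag

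CDC6 held both kinds of word, UHRF1 held 1 E2F-type word on the opposite strand, CDC45 and MCM10 held only the related word, and neither RRM2 nor RPA1 held any of them. RefSeq promoters were matched for 39 of the 45 members, and MCM4, MCM5, GINS4, POLD3, RPA2 and RPA3 were not matched. At least 1 of the 4 E2F-type words lay in 18 of the 39 promoters (46.2%), against 908 of 27305 promoters of the same length over all genes (3.33%). TTTCGCGC overlaps its own reverse complement, and each promoter was counted once. The related word TTTGGCGG, added after the sequences had been read, lay in 7 of 39 (17.9%) against 0.681% of all promoters. It was picked from promoters of these same members, so its higher share there is no independent result. CCAAT, the word bound by NF-Y, lay in 21 of 39 (53.8%) against 35.7% of all promoters. TTTGAA, the cell cycle homology region typical of mitotic promoters, lay in 1 of 39 (2.56%) against 15.4% of all promoters and 13 of 20 matched promoters (65.0%) of a list of mitotic genes. In that list CCAAT lay in 80.0%, the E2F-type words in 10.0% and TTTGGCGG in 10.0%. Of 51 matched promoters of a list of other replication genes, CCAAT lay in 52.9% and TTTGAA in 7.84%. The E2F-type words lay in 15.7% of these and TTTGGCGG in 3.92%. CCAAT was thus not particular to the members. The full androgen response element, AGAACA and TGTTCT with 3 bases between them, lay in 0 of 39 and in 1 of all 27305 promoters. The 18 members with an E2F-type word had a median log2 effect of R1881 of 1.79 at 24 h and 1.19 at 72 h, and the 21 without one had 1.45 and 0.92. A match only says that these letters are in the window, and the difference between these medians was not tested.

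Libraries held from 9846595 to 33809419 counts, and the deepest was replicate 3 of the 24 h vehicle group, with the next at 15248512. Luminal prostate markers of the line (KRT8, KRT18, FOLH1, HOXB13, STEAP2) stood between 275 and 1511 CPM (counts scaled by library size) in every library, KRT5 was at 0, and KRT14, PTPRC and PECAM1 reached at most 0.447, 0.285 and 0.175 CPM. The collagens of stromal cells were detected, and moved with the groups: COL1A1 had means from 8.23 CPM with R1881 and Senexin B to 29.6 CPM in 72 h vehicle, and COL3A1 from 1.10 CPM with R1881 at 72 h to 11.8 CPM with SNX631. Their part in the results was not tested. All 45 members passed the filter on low counts in every comparison, and the lowest count of any member in any library was 13, for POLE2. Levels are given as CPM scaled by TMM over all 28 libraries, which is not corrected for gene length. A member is said to have risen or fallen where the false discovery rate (FDR) of edgeR, adjusted over all genes tested, was under 0.01 and the fold change over 1.5. The values of 17 members are given by library, picked by a rule of effect size within each role, and the other members named below were chosen after their values were seen.

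Summed over the 45 members, the level was higher with R1881 and with either inhibitor, and the sums of each treated group and its control did not overlap. At 24 h the sum was 1113 ± 17.8 CPM (SD, n = 3) in vehicle, 1343 ± 44.9 with Senexin B, 2976 ± 105 with R1881 and 3421 ± 161 with both. At 72 h it was 1495 ± 17.9 CPM (SD, n = 4) in vehicle, 2303 ± 76.4 with SNX631, 2943 ± 16.7 with R1881 and 3995 ± 40.5 with both. With R1881 alone the sums of the 2 experiments had a ratio of 0.989 with overlapping libraries, and the fold over vehicle was 2.67 at 24 h and 1.97 at 72 h. The vehicle sum itself was 1.34 times higher at 72 h. Replicate 2 had the highest sum in each of the 4 groups of the 24 h experiment, and abundant genes weigh more in a sum than scarce ones.

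**Figure D1:**
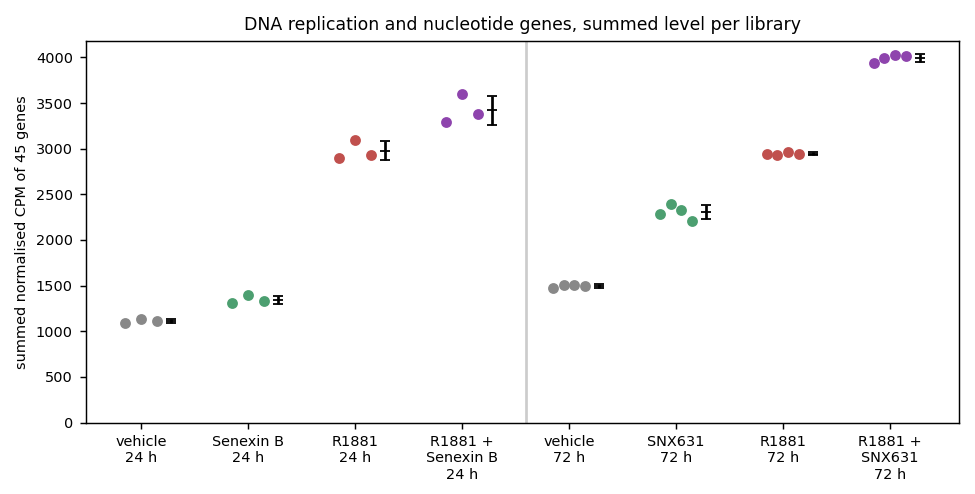
Summed normalised CPM of the 45 DNA replication and nucleotide synthesis genes (vertical axis, linear from 0) in each of the 28 libraries, by group, with the 24 h experiment left of the grey line and the 72 h experiment right of it; the black mark beside each group is the mean with its SD. Within each experiment the 4 groups do not overlap, from 1113 CPM on average in 24 h vehicle to 3995 CPM in the 72 h group with R1881 and SNX631.

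The response to androgen alone came first. After 24 h, 40 of the 45 members rose with R1881, where 9.81% of all 15948 genes tested rose, and none fell (9.19% of all genes). Their median log2 fold change was 1.71, against -0.02 over all genes. All 45 passed the FDR limit in that direction when the fold was left aside (26.3% of all genes), and in all 45 the R1881 libraries lay wholly above the vehicle libraries (31.7% of all genes). At 72 h, 39 of 45 rose, where 9.7% of all 16074 genes tested rose, and none fell (10.1% of all genes), with a median log2 fold change of 1.01 against -0.01 over all genes, and again all 45 passed the FDR limit (27.6% of all genes) and had libraries wholly above vehicle (29.4% of all genes). The 39 that rose at 72 h had all risen at 24 h.

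**Figure D2:**
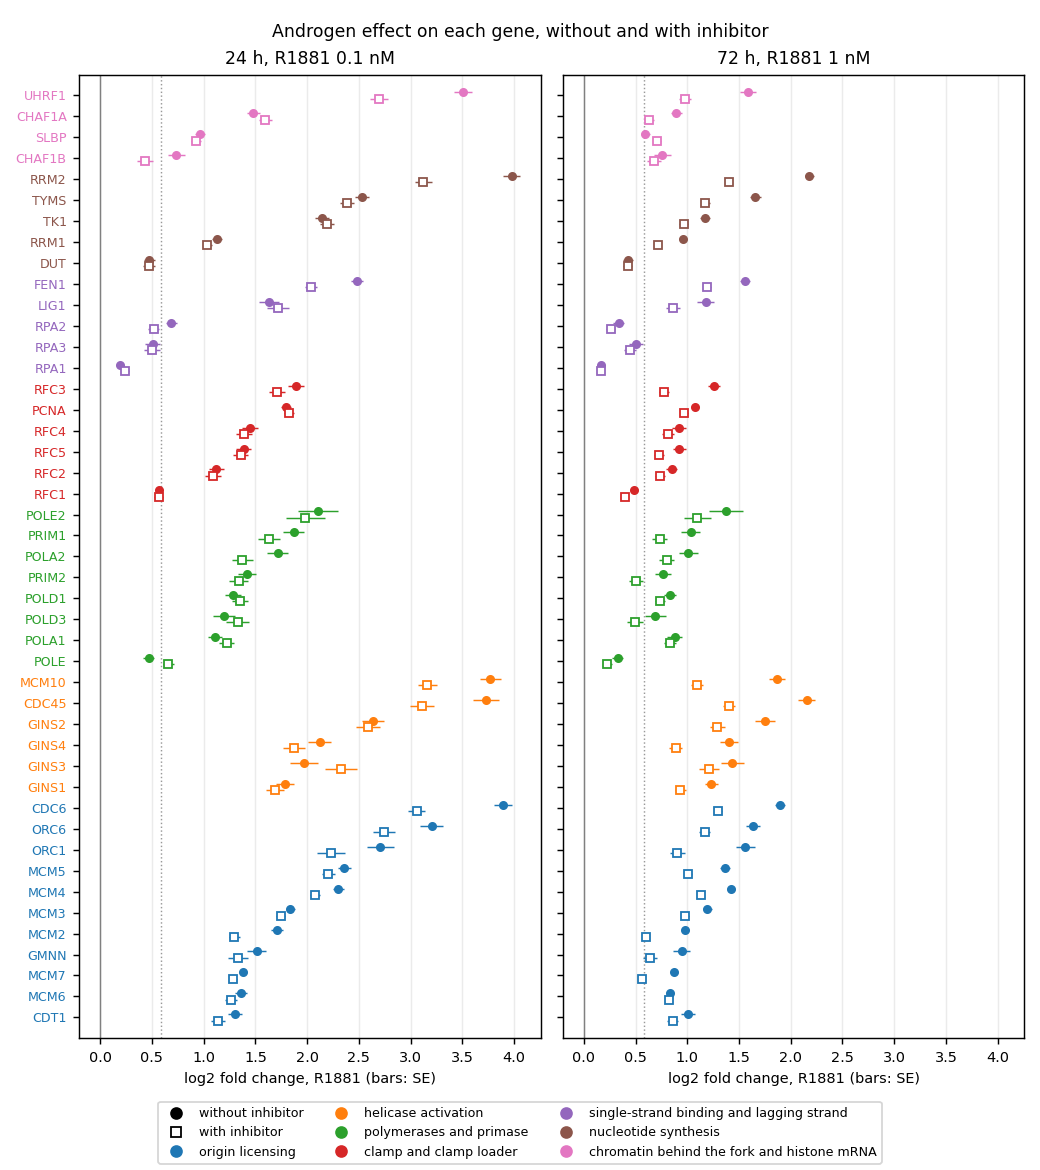
Log2 fold change of R1881 for each of the 45 genes (horizontal axis, bars are SE), grouped and coloured by role, at 24 h with 0.1 nM (left) and at 72 h with 1 nM (right); filled circles are without inhibitor and open squares with inhibitor, and the dotted line is a fold of 1.5. RRM2, CDC6, MCM10, CDC45 and UHRF1 lie farthest right at 24 h, up to 3.98, and RPA1 lies closest to 0 in both panels.

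All 11 origin licensing genes rose with R1881 at both times, by log2 1.30 to 3.90 after 24 h and 0.83 to 1.90 after 72 h. CDC6, the ATPase that helps to load the MCM helicase, held 5.13, 5.78 and 5.52 CPM in the 24 h vehicle libraries and 81.0, 85.7 and 79.9 CPM with R1881. At 72 h its libraries read 19.4, 20.6, 20.3 and 19.6 CPM in vehicle and 72.3, 73.5, 73.9 and 79.4 CPM with R1881. The groups stand far apart at both times, and the rise was 14.9-fold at 24 h (log2 3.90 ± 0.086, SE, edgeR FDR = 2.22e-27) and 3.73-fold at 72 h (FDR = 2.96e-29). ORC6, the smallest subunit of the origin recognition complex, stood at 3.51, 2.71 and 2.67 CPM in 24 h vehicle against 24.4, 27.9 and 26.4 CPM with R1881. At 72 h ORC6 stood at 8.25, 7.67, 8.53 and 9.30 CPM and 26.04, 25.6, 26.4 and 27.4 CPM. It rose 9.21-fold (log2 3.20 ± 0.11) and 3.11-fold (log2 1.64 ± 0.070). ORC1, the largest subunit of the same complex, read 4.18, 3.07 and 2.90 CPM in 24 h vehicle and 22.3, 22.9 and 17.5 CPM with R1881. Its 72 h libraries read 6.79, 6.09, 6.93 and 5.61 CPM and 17.5, 17.8, 20.3 and 19.4 CPM. The groups of ORC1 were again apart, by 6.53-fold and 2.95-fold. MCM2, a subunit of the helicase ring, went from 41.8, 45.9 and 41.8 CPM to 135, 146 and 141 CPM at 24 h. At 72 h it went from 67.2, 71.7, 68.4 and 67.1 CPM to 129.8, 140.0, 133 and 141 CPM. Its folds of 3.27 and 1.98 were smaller than those of CDC6, and the other 5 MCM subunits rose by log2 1.36 (MCM6) to 2.36 (MCM5) at 24 h. CDT1, which delivers the helicase, and GMNN, geminin, the protein that holds CDT1 back outside G1, both rose, by log2 1.30 and 1.51 at 24 h.

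All 6 helicase activation genes also rose at both times, with medians of 2.38 and 1.59, the highest median of any of the 7 role groups at 24 h and at 72 h. MCM10, which helps the loaded helicase to start unwinding, held 2.56, 2.93 and 2.44 CPM in 24 h vehicle and 37.3, 35.0 and 33.8 CPM with R1881. In the 72 h libraries it held 8.50, 9.40, 11.7 and 10.8 CPM in vehicle and 37.4, 37.0, 35.5 and 38.3 CPM with R1881. MCM10 rose 13.6-fold (log2 3.77 ± 0.10, edgeR FDR = 7.13e-25) and 3.64-fold. CDC45, the helicase cofactor that joins MCM2-7 and GINS in the working helicase, held 1.71, 1.71 and 1.98 CPM in 24 h vehicle against 24.2, 28.3 and 22.3 CPM with R1881. At 72 h the CDC45 libraries read 5.33, 6.16, 5.32 and 5.997 CPM and 25.4, 23.6, 26.5 and 27.0 CPM. The rise was 13.3-fold (log2 3.73 ± 0.13) and 4.45-fold (log2 2.15 ± 0.084, edgeR FDR = 2.31e-23), without overlap of the groups at either time. The GINS subunits, partners of CDC45, rose by log2 1.79 (GINS1) to 2.63 (GINS2) at 24 h.

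Of the 8 polymerase and primase genes 7 rose at both times, and POLE, the catalytic subunit of polymerase epsilon, did not pass the fold limit. POLE2, the second subunit of that polymerase, held 1.23, 1.21 and 1.38 CPM in 24 h vehicle and 5.01, 6.35 and 5.604 CPM with R1881. Its 72 h libraries held 2.32, 2.26, 3.04 and 2.00 CPM and 6.12, 7.13, 6.46 and 5.19 CPM. POLE2 rose 4.29-fold and 2.59-fold with the widest error of any member (log2 2.10 ± 0.19 and 1.37 ± 0.17). PRIM1, the catalytic primase subunit that makes the RNA primers, read 4.94, 4.71 and 4.34 CPM in 24 h vehicle against 15.3, 17.1 and 17.5 CPM with R1881. At 72 h PRIM1 read 7.13, 7.89, 7.35 and 8.07 CPM and 16.2, 13.9, 17.5 and 15.3 CPM. Both comparisons left the groups apart, at 3.65-fold and 2.05-fold (log2 1.87 ± 0.10 and 1.03 ± 0.091), and PRIM1 had a fractional count in 22 of 28 libraries. The remaining members of the group rose by log2 1.11 (POLA1, polymerase alpha) to 1.71 (POLA2, its second subunit) at 24 h. POLA2 shares 35.1% of its exon bases with a gene on the same strand.

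In the clamp and clamp loader group, PCNA and 4 of the 5 replication factor C subunits rose at both times, and RFC1, the large subunit, missed the fold limit. PCNA, the ring that holds polymerases on DNA, held 52.3, 51.0 and 51.0 CPM in 24 h vehicle and 182, 186 and 167 CPM with R1881. At 72 h it held 78.9, 84.8, 76.8 and 79.1 CPM in vehicle and 172, 163, 165 and 175 CPM with R1881. PCNA rose 3.47-fold and 2.10-fold (log2 1.80 ± 0.048 and 1.07 ± 0.036, edgeR FDR = 5.82e-25 and 2.67e-25). RFC3, a small subunit of the loader that opens the ring, stood at 10.9, 11.8 and 10.6 CPM in 24 h vehicle and at 41.5, 41.7 and 39.3 CPM with R1881. Its 72 h libraries stood at 16.2, 17.7, 18.2 and 15.99 CPM and 43.5, 39.3, 41.8 and 39.7 CPM. The rises of RFC3 were 3.70-fold and 2.40-fold. Per kilobase of exon, PCNA had the highest level of the 45 members in all 8 groups, from 35.0 CPM per kilobase in 24 h vehicle to 174 with R1881 and SNX631 at 72 h, and either POLE2 or GINS3 had the lowest.

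The single-strand binding and lagging strand genes split. FEN1 and LIG1, the flap nuclease and the ligase that join lagging-strand fragments, rose at both times, whereas of the 3 subunits of replication protein A, which coats single-stranded DNA, RPA2 alone passed the limits, at 24 h (log2 0.69 ± 0.055) and not at 72 h (0.34 ± 0.051). FEN1 held 13.9, 13.99 and 13.3 CPM in 24 h vehicle and 74.6, 76.2 and 77.8 CPM with R1881. At 72 h FEN1 held 25.9, 28.8, 24.2 and 25.6 CPM and 78.6, 77.0, 75.7 and 79.1 CPM. Its folds were 5.59 and 2.95 (log2 2.48 ± 0.057 and 1.56 ± 0.049). LIG1 read 5.98, 6.57 and 7.10 CPM in 24 h vehicle against 20.1, 23.4 and 19.4 CPM with R1881. The 72 h libraries of LIG1 read 10.2, 9.85, 9.38 and 10.7 CPM and 21.7, 26.7, 19.9 and 22.7 CPM. It rose 3.10-fold and 2.26-fold, without overlap. RPA1, the large subunit of replication protein A, differed least of all members, with 185, 192 and 184 CPM in 24 h vehicle and 206, 222 and 212 CPM with R1881. At 72 h RPA1 read 171, 183, 179 and 183 CPM and 208, 193, 207 and 203 CPM. Its groups did not overlap, but the log2 differences of 0.19 ± 0.037 (edgeR FDR = 5.62e-05) and 0.17 ± 0.029 (FDR = 3.08e-06) stayed well under the fold limit.

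Of the 5 nucleotide synthesis genes, 4 rose at both times and DUT, the dUTPase that keeps uracil out of DNA, did not. RRM2, the regulated small subunit of ribonucleotide reductase, had the largest androgen effect of the 45 in both experiments. Its 24 h libraries read 6.74, 9.35 and 8.10 CPM in vehicle and 118, 138 and 130.5 CPM with R1881. At 72 h RRM2 read 32.0, 35.2, 32.3 and 33.6 CPM in vehicle and 154, 149.9, 158 and 145 CPM with R1881. The rise was 15.7-fold (log2 3.98 ± 0.080, edgeR FDR = 1.90e-28) and 4.53-fold (log2 2.18 ± 0.044, FDR = 8.67e-33), against 2.19-fold and 1.94-fold for RRM1, the large subunit of the same enzyme. TYMS, thymidylate synthase, which makes dTMP anew, held 11.6, 13.4 and 14.02 CPM in 24 h vehicle and 75.9, 82.5 and 73.3 CPM with R1881. At 72 h TYMS held 27.7, 29.8, 29.9 and 29.8 CPM and 88.8, 92.9, 99.6 and 90.3 CPM. It rose 5.76-fold and 3.16-fold, and TK1, the kinase of the thymidine salvage route, rose 4.42-fold and 2.25-fold. TYMS shares 46.6% of its exon bases with genes on the opposite strand and RRM2 20.2% with a gene on its own strand, and the use of strand in counting is not given in the sources used here. MCM2 and GINS4 each share 23.6% with genes on the opposite strand, and PRIM1 21.6% with genes on both strands. In all, 21 of the 45 members share some exon bases with another gene.

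All 4 genes of chromatin behind the fork and of histone mRNA rose at both times. UHRF1, which brings the maintenance DNA methyltransferase to newly copied DNA, stood at 3.23, 3.35 and 3.30 CPM in 24 h vehicle and at 36.9, 38.4 and 37.7 CPM with R1881. At 72 h it stood at 10.5, 10.1, 12.3 and 10.8 CPM and 29.1, 35.9, 33.6 and 32.4 CPM. UHRF1 rose 11.4-fold (log2 3.51 ± 0.089, edgeR FDR = 9.44e-26) and 3.01-fold. CHAF1A, the large subunit of the chromatin assembly factor that places new histones, read 17.3, 20.4 and 18.9 CPM in 24 h vehicle and 53.8, 55.1 and 50.2 CPM with R1881. The 72 h values of CHAF1A were 28.8, 28.7, 27.3 and 30.6 CPM and 51.4, 56.7, 54.6 and 52.5 CPM. Its folds were 2.79 and 1.86, and CHAF1B, its partner subunit, rose by log2 0.73 ± 0.081 and 0.76 ± 0.082. SLBP, which binds the stem-loop of replication-dependent histone mRNA, rose by log2 0.96 and 0.60.

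The members that did not rise with R1881 in either experiment were DUT, POLE, RFC1, RPA1 and RPA3. All 5 moved in the same direction as the rest. RFC1 differed by log2 0.57 ± 0.041 at 24 h, just under the limit, from a mean of 87.1 ± 4.33 CPM (SD, n = 3) in vehicle to 130.3 ± 4.75 CPM. DUT went from 56.7 ± 1.12 to 79.0 ± 5.72 CPM, POLE from 40.0 ± 1.75 to 55.4 ± 1.60 CPM, and RPA3, the smallest subunit of replication protein A, from 18.6 ± 1.08 to 26.9 ± 2.24 CPM. Each of the 5 had an FDR under 0.01 in both experiments and libraries that did not overlap.

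With an inhibitor present in both arms, R1881 still raised most members. At 24 h 39 of 45 rose in R1881 with Senexin B against Senexin B alone (9.97% of all genes) and none fell (8.9%), with a median log2 fold change of 1.59, and at 72 h 36 of 45 rose in R1881 with SNX631 against SNX631 alone (10.1% of all genes) and none fell (12%), with a median of 0.82. Scaling by library totals ended the 72 h calls of CHAF1A (log2 0.63 ± 0.047 to 0.52) and MCM2 (0.60 ± 0.030 to 0.49). Of the members, 35 rose in all 4 androgen comparisons, and DUT, RFC1, RPA1 and RPA3 rose in none. These comparisons share no libraries, but those of the same experiment share 1 fit and its estimate of spread. No share of all genes was taken for calls in more than 1 comparison, so such counts cannot be set against one.

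Comparing the experiments, the androgen effect of 21 members was smaller at 72 h than at 24 h in the fit of all 28 libraries, where 1.31% of all 16672 genes tested had a smaller or more negative one, and it was larger for none (0.57% of all genes). The median difference over the members was -0.58. It was greatest for CDC6 (-1.99 ± 0.11, edgeR FDR = 1.93e-18), UHRF1 (-1.91 ± 0.13), MCM10 (-1.90 ± 0.15) and RRM2 (-1.79 ± 0.10), and RPA1 differed by -0.01 ± 0.046 (FDR = 0.893). Vehicle libraries alone also differed: 26 of 45 members were higher in 72 h than in 24 h vehicle (3.95% of all genes), by a median log2 of 0.63, and none was lower (2.02% of all genes). RRM2 was 4.08-fold higher, MCM10 3.90-fold and CDC6 3.62-fold. These comparisons share the vehicle libraries, so for RRM2 the values stand side by side: 8.06 ± 1.31 CPM (SD, n = 3) and 33.3 ± 1.47 CPM (SD, n = 4) in vehicle, and 129 ± 10.2 and 152 ± 5.55 CPM with R1881. As a description across the 45 genes, which are no independent replicates, the effects of R1881 at the different times had a Pearson r of 0.960, and 43 of 45 were larger at 24 h.

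The next comparison asked what the CDK8/19 inhibitors did to these genes without androgen. With Senexin B at 24 h 8 of 45 members rose, where 2.02% of all genes rose, and none fell (1.77% of all genes). They were CDC45, CDC6, CHAF1B, MCM10, MCM2, ORC6, RRM2 and UHRF1. The median log2 fold change of the 45 was 0.30 against 0.00 over all genes, 24 passed the FDR limit upward when the fold was left aside (13.5% of all genes), and in 31 the Senexin B libraries lay wholly above vehicle (23.7% of all genes). With SNX631 at 72 h 31 of 45 rose (2.82% of all genes) and none fell (1.94% of all genes), with a median of 0.71. All 45 passed the FDR limit upward (14.4% of all genes), and in 44 the SNX631 libraries lay wholly above vehicle (18% of all genes). All 8 members that rose with Senexin B were among the 31 that rose with SNX631.

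**Figure D3:**
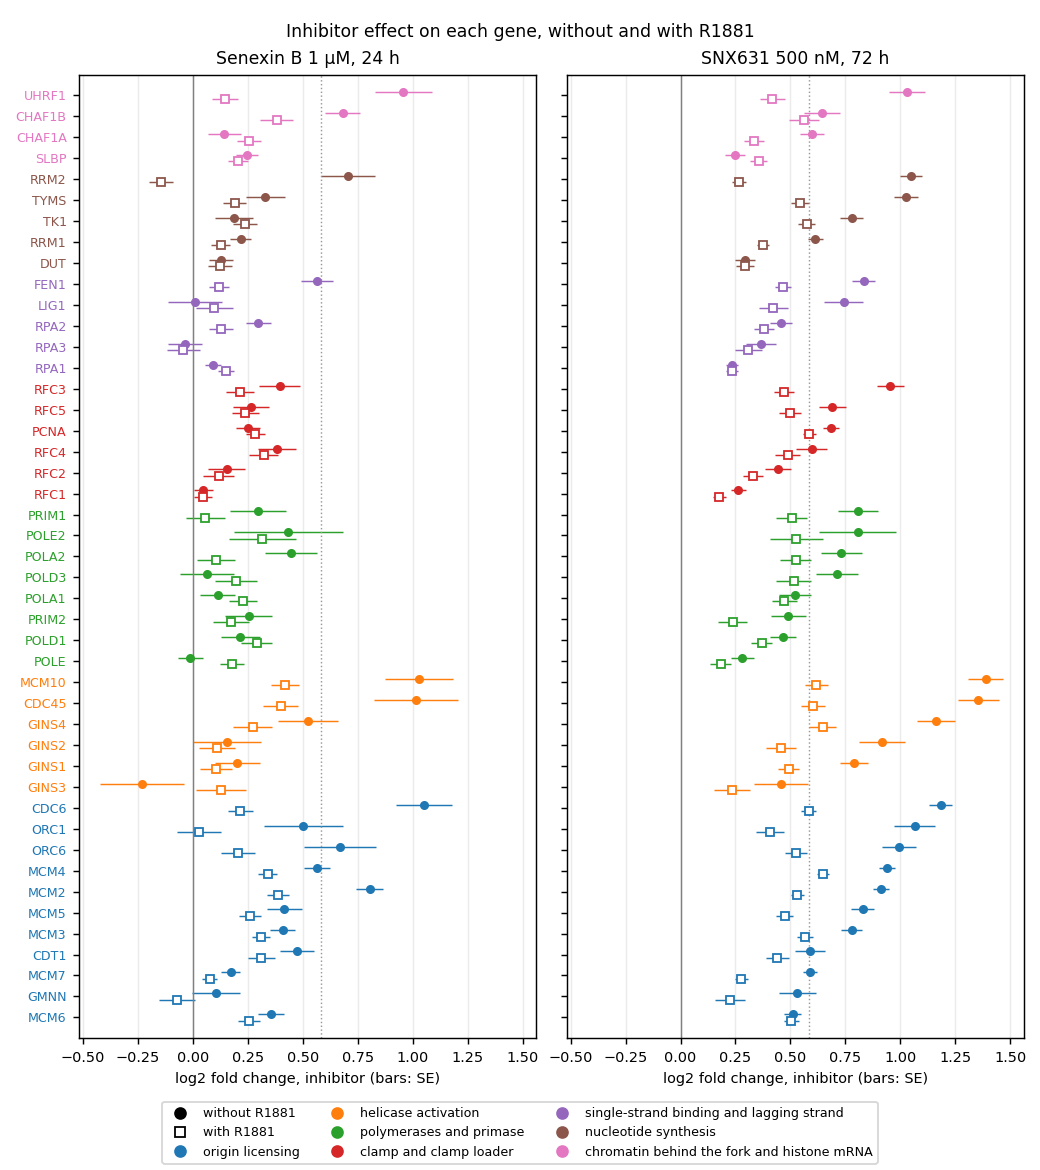
Log2 fold change of the inhibitor for each of the 45 genes (horizontal axis, bars are SE), grouped and coloured by role, for Senexin B at 24 h (left) and SNX631 at 72 h (right); filled circles are without R1881 and open squares with R1881, and the dotted line is a fold of 1.5. Without R1881 the 8 genes right of the line for Senexin B reach 1.05, whereas 31 lie right of it for SNX631, up to 1.39.

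By role, Senexin B raised 3 of 11 origin licensing genes, 2 of 6 helicase activation genes, 2 of 4 chromatin and histone mRNA genes and 1 of 5 nucleotide synthesis genes, and no polymerase, clamp, loader or lagging strand gene. CDC6 read 9.02, 13.97 and 11.7 CPM with Senexin B, above every vehicle library given before, and rose 2.07-fold (log2 1.05 ± 0.13, edgeR FDR = 9.00e-08). MCM10 read 4.47, 5.98 and 5.48 CPM and rose 2.04-fold (log2 1.03 ± 0.16). CDC45 read 2.98, 4.21 and 4.24 CPM and rose 2.02-fold (log2 1.02 ± 0.19). All 3 lay above vehicle in every library. UHRF1 held 6.19, 7.07 and 6.10 CPM (1.94-fold), RRM2 13.1, 15.3 and 11.7 CPM (1.63-fold) and MCM2 69.8, 82.9 and 73.2 CPM (1.75-fold). ORC6 held 4.25, 5.64 and 3.78 CPM, or 1.59-fold, and its call ended without replicate 3 of vehicle (log2 0.56) or replicate 2 of Senexin B (log2 0.51). Members of the other roles read 18.8, 20.6 and 21.1 CPM for FEN1 (log2 0.56 ± 0.072, FDR = 2.56e-07), 58.3, 64.1 and 61.1 CPM for PCNA (0.25 ± 0.055) and 13.2, 15.2 and 15.2 CPM for RFC3 (0.39 ± 0.093). These 3 were above vehicle in every library yet under the fold limit. For LIG1 (6.86, 7.41 and 6.17 CPM, log2 0.01 ± 0.12, FDR = 0.963), ORC1 (4.18, 3.96 and 5.40 CPM), POLE2 (1.34, 1.94 and 2.08 CPM) and CHAF1A (22.1, 21.2 and 19.6 CPM) the libraries overlapped those of vehicle. PRIM1 read 6.04, 5.39 and 5.33 CPM (log2 0.30 ± 0.13), TYMS 17.6, 16.6 and 16.3 CPM (0.33 ± 0.089) and RPA1 197, 199 and 203 CPM (0.09 ± 0.037). These last 3 lay above vehicle in every library and under the fold limit.

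SNX631 at 72 h raised 9 of 11 origin licensing genes, 5 of 6 helicase activation genes, 4 of 8 polymerase and primase genes, 4 of 6 clamp and loader genes, 2 of 5 single-strand binding and lagging strand genes, 4 of 5 nucleotide synthesis genes and 3 of 4 genes of the last role. MCM10 read 27.3, 27.8, 28.1 and 22.8 CPM and rose 2.62-fold (log2 1.39 ± 0.079, edgeR FDR = 4.97e-17), the largest effect of the 45. CDC45 read 13.5, 15.3, 14.2 and 15.8 CPM, 2.56-fold above vehicle. CDC6 read 46.7, 45.7, 46.8 and 43.0 CPM, 2.27-fold above vehicle. No library of these genes overlapped vehicle, and all lay between vehicle and R1881. ORC1 held 12.5, 14.5, 12.98 and 13.1 CPM (2.09-fold), ORC6 17.8, 17.3, 16.4 and 16.01 CPM (1.99-fold) and MCM2 127, 132, 128 and 131 CPM (1.88-fold). RRM2 held 68.9, 75.4, 68.2 and 63.6 CPM (2.07-fold), TYMS 56.3, 63.6, 64.2 and 55.2 CPM (2.04-fold) and UHRF1 22.6, 24.4, 20.9 and 21.1 CPM (2.04-fold). None of these 6 overlapped vehicle. PCNA held 133, 135, 126 and 122 CPM (1.61-fold), RFC3 34.6, 34.9, 30.2 and 32.7 CPM (1.94-fold) and FEN1 46.1, 50.3, 46.3 and 44.3 CPM (1.78-fold). LIG1 held 15.6, 18.2, 16.9 and 16.6 CPM (1.67-fold), PRIM1 13.3, 13.9, 14.01 and 12.2 CPM (1.75-fold) and POLE2 4.23, 5.41, 3.40 and 3.69 CPM (1.75-fold). These 6 were above vehicle in every library as well. CHAF1A held 40.8, 46.9, 44.5 and 42.8 CPM, or 1.51-fold, and its call ended without replicate 3 of vehicle (log2 0.57) or replicate 2 of SNX631 (log2 0.56), and with scaling by library totals (0.57). RPA1 held 210.5, 210.5, 216 and 209 CPM (log2 0.23 ± 0.028), under the fold limit.

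The same question was asked in the presence of R1881. Senexin B raised 0 of 45 members over R1881 alone by edgeR (1.61% of all genes rose) and by DESeq2, and lowered none (1.5%). Without the fold limit 33 had an unadjusted p under 0.05 (42.1% of all genes) and 21 passed the FDR limit upward (12.7% of all genes). In 28 the libraries with both agents lay wholly above R1881 alone (22.8% of all genes), and the median log2 fold change was 0.20. With R1881 and Senexin B, MCM10 read 45.1, 51.2 and 46.1 CPM (log2 0.42 ± 0.064 over R1881), CDC45 35.1, 32.0 and 31.7 CPM (0.40 ± 0.080) and MCM2 172, 198 and 185 CPM (0.39 ± 0.049). CDC6 read 88.5, 102 and 96.5 CPM (0.21 ± 0.057), PCNA 207, 233 and 213 CPM (0.28 ± 0.043) and UHRF1 40.9, 44.8 and 39.8 CPM (0.15 ± 0.060). These 6 genes lay above R1881 in every library. RRM2, by contrast, read 109, 127 and 115 CPM (log2 -0.15 ± 0.056, edgeR FDR = 0.0420), overlapping R1881 alone with a lower mean. ORC1 read 20.2, 24.0 and 19.9 CPM, POLE2 8.34, 7.07 and 5.86 CPM, PRIM1 17.6, 18.2 and 16.4 CPM and LIG1 20.5, 24.0 and 22.9 CPM, each overlapping R1881 alone. ORC6 read 28.7, 31.3 and 31.0 CPM, RFC3 42.4, 49.7 and 50.1 CPM, FEN1 81.2, 86.7 and 81.3 CPM and TYMS 83.9, 95.6 and 85.9 CPM. CHAF1A read 61.7, 67.4 and 61.6 CPM and RPA1 227, 249 and 236 CPM, and these last 6 genes lay above R1881 alone in every library by log2 0.12 (FEN1) to 0.26 (CHAF1A).

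SNX631 raised 5 of 45 members over R1881 alone at 72 h (1.89% of all genes) and lowered none (2.24%), with a median log2 fold change of 0.47, and in all 45 the libraries with both agents lay wholly above those with R1881 (21.2% of all genes). Without the fold limit 44 passed the FDR limit upward (17.8% of all genes), GINS3 being the exception at log2 0.23 ± 0.083. The 5 were CDC45, GINS4, MCM10, MCM4 and PCNA, and the other members lay under the fold limit. MCM10 read 59.0, 58.0, 56.9 and 55.3 CPM with both agents (log2 0.62 ± 0.052, edgeR FDR = 2.29e-12). CDC45 read 36.5, 40.7, 39.6 and 39.9 CPM (log2 0.60 ± 0.055), and its call ended without replicate 2 of R1881 (0.56) or replicate 2 of R1881 with SNX631 (0.585), and with scaling by library totals (0.57). PCNA read 249, 251, 263 and 258 CPM (log2 0.59 ± 0.031, FDR = 5.39e-18), at the fold limit itself. Its call ended without replicate 1 of SNX631 (0.585), replicate 2 or 3 of R1881 (0.57 and 0.58), or replicate 3 or 4 of R1881 with SNX631 (0.57 and 0.58), and with scaling by library totals (0.55). CDC6 read 116, 110.4, 115 and 111 CPM (log2 0.58 ± 0.035), MCM2 204, 197, 194 and 199 CPM (0.53 ± 0.030) and ORC6 37.7, 39.1, 38.3 and 38.0 CPM (0.53 ± 0.051). TYMS read 131, 141, 142 and 132 CPM (0.54 ± 0.039), RRM2 177, 185, 189.6 and 184 CPM (0.27 ± 0.033) and UHRF1 45.04, 41.7, 47.5 and 42.8 CPM (0.42 ± 0.057). These 6 genes were under the fold limit with an FDR under 0.01. ORC1 read 24.9, 24.0, 27.2 and 24.4 CPM, RFC3 58.4, 57.5, 56.7 and 56.2 CPM and FEN1 105, 106, 113 and 108 CPM. LIG1 read 29.7, 29.5, 32.5 and 31.6 CPM, PRIM1 20.7, 24.8, 22.6 and 21.7 CPM and POLE2 7.63, 10.5, 9.63 and 8.40 CPM. CHAF1A read 69.3, 62.7, 71.5 and 70.8 CPM (log2 0.34 ± 0.046) and RPA1 243, 240.0, 237 and 239.5 CPM (0.23 ± 0.028). The 72 h group with both agents thus had the highest mean of the 4 groups of its experiment for all 17 members given by library.

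**Figure D4:**
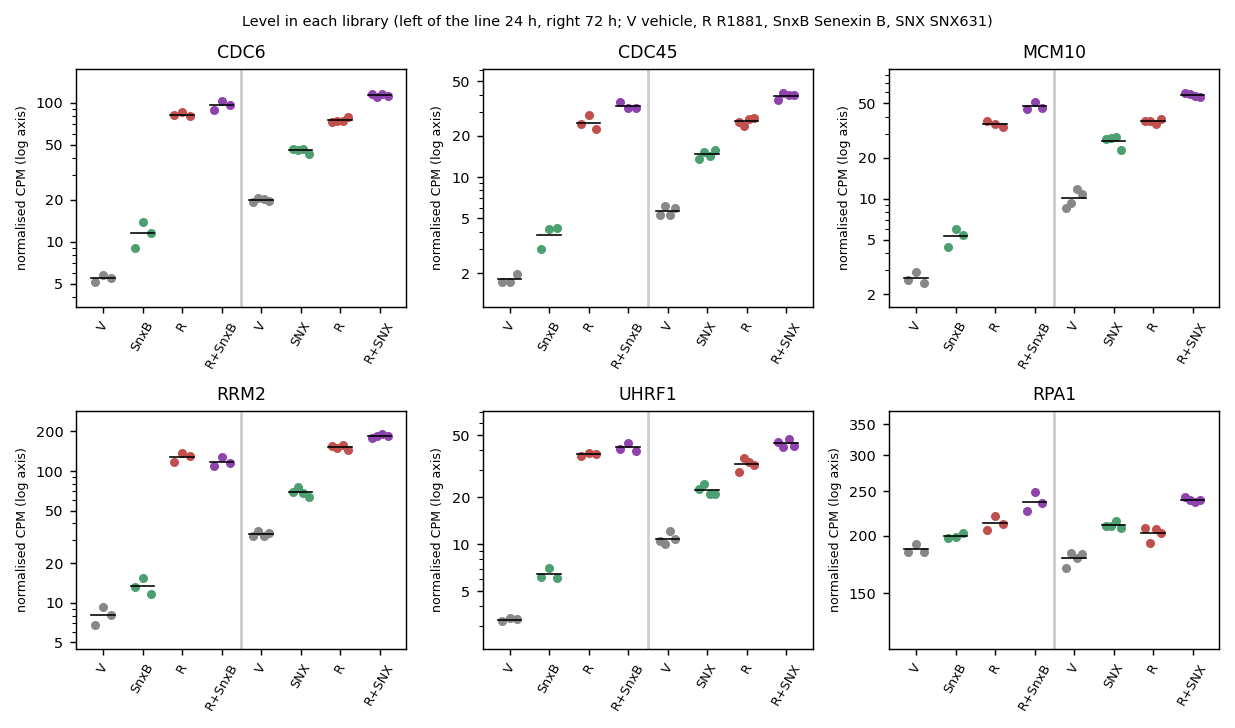
Level of CDC6, CDC45, MCM10, RRM2, UHRF1 and RPA1 in each library (vertical axes, normalised CPM on log scales), with the mean of each group as a bar, 24 h left of the grey line and 72 h right of it; V is vehicle, R R1881, SnxB Senexin B and SNX SNX631. In the first 5 genes the groups with R1881 sit far above 24 h vehicle and 72 h vehicle sits above 24 h vehicle, whereas RPA1 stays between 170.6 and 249.1 CPM throughout.

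An interaction asks whether the inhibitor changed the effect of R1881, on the log2 scale. At 24 h the effect of R1881 was smaller with Senexin B for 3 members (0.332% of all genes), at 72 h it was smaller with SNX631 for 6 (0.821% of all genes), and it was larger for none (0.245% and 0.373% of all genes). CDC6, RRM2 and UHRF1 were called in both experiments. CDC45, MCM10 and ORC1 were called at 72 h, and their 24 h values did not pass. For RRM2 the log2 interaction was -0.85 ± 0.13 at 24 h (edgeR FDR = 7.63e-05) and -0.78 ± 0.059 at 72 h (FDR = 1.67e-12). CDC6 had -0.84 ± 0.14 and -0.60 ± 0.064, and UHRF1 -0.81 ± 0.14 and -0.61 ± 0.10. CDC45 had -0.62 ± 0.21 (FDR = 0.0923) at 24 h and -0.75 ± 0.11 (FDR = 4.04e-06) at 72 h. MCM10 had -0.61 ± 0.17 (FDR = 0.0303) and -0.77 ± 0.097 (FDR = 2.64e-07), and ORC1 -0.48 ± 0.21 (FDR = 0.220) and -0.66 ± 0.11 (FDR = 7.42e-05). PCNA (0.03 ± 0.070 and -0.10 ± 0.048) and RPA1 (0.06 ± 0.052 and -0.00 ± 0.039) were not called. A smaller log2 effect was not always a smaller gain in CPM. With R1881 at 24 h the mean of CDC6 went from 5.47 to 82.2 CPM without Senexin B and from 11.6 to 95.7 CPM with it. The mean of RRM2 went from 8.06 to 129 CPM without Senexin B and from 13.4 to 117 CPM with it. Over all 45 members the median interaction was -0.10 at 24 h and -0.25 at 72 h, against 0.00 and -0.01 over all genes. It was negative for 35 and 44 members, SLBP being the exception at 72 h. All 25 genes of the mitotic list were also negative at both times, with medians of -0.28 and -0.40. Of the 60 other replication genes described below, 37 and 33 were negative. At 72 h the call of CDC6 ended without replicate 1 of vehicle (-0.585), replicate 3 of SNX631 (-0.585) or replicate 4 of R1881 (-0.57), and that of UHRF1 without replicate 2 of any of the 4 groups (-0.56 to -0.58).

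**Figure D5:**
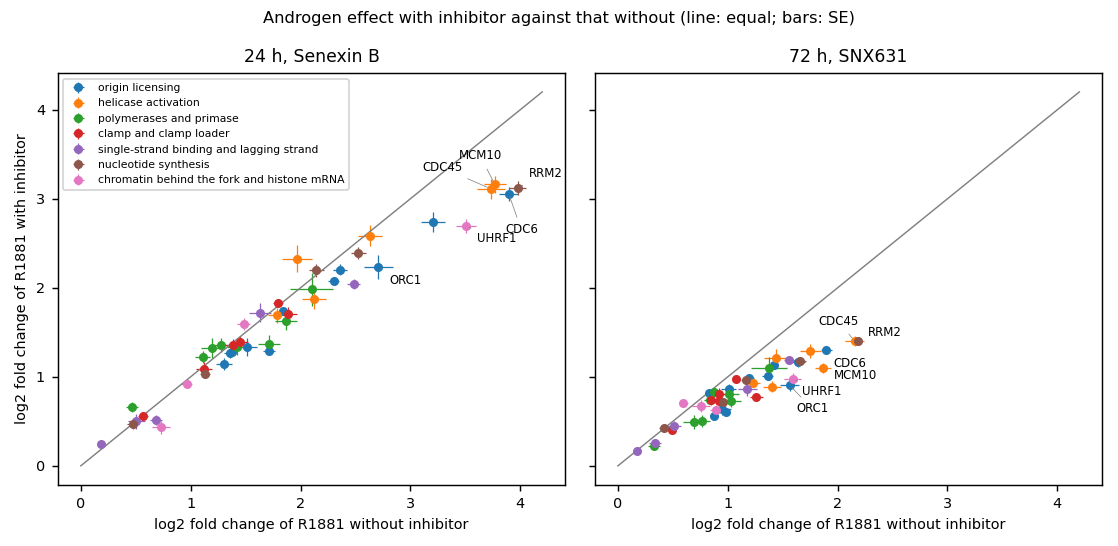
Log2 fold change of R1881 with inhibitor (vertical axis) against that without inhibitor (horizontal axis) for the 45 genes, coloured by role, with SE bars, for Senexin B at 24 h (left) and SNX631 at 72 h (right); the grey line marks equal effects. The genes named in the plot, which had the called interactions, lie below the line, and at 72 h 44 of 45 do.

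Values for the inhibitors come from different compounds, doses, times and experiments. In the fit of all 28 libraries, the effect without androgen was larger for SNX631 at 72 h than for Senexin B at 24 h for 4 members (0.348% of all genes) and smaller for none (0.126%), with a median difference of 0.37. The 4 were GINS1 (0.59 ± 0.12), LIG1 (0.74 ± 0.15), TK1 (0.59 ± 0.10) and TYMS (0.70 ± 0.11, edgeR FDR = 3.01e-05). The count was 2 without replicate 2 of 24 h vehicle, replicate 3 of Senexin B or replicate 2 of SNX631, and the call of LIG1 ended without replicate 3 of 24 h vehicle (0.65) or replicate 3 of Senexin B (0.66). For the 5 genes with the largest androgen effects at 24 h the differences were CDC6 0.13 ± 0.13 (FDR = 0.697), UHRF1 0.07 ± 0.17, CDC45 0.34 ± 0.21, MCM10 0.36 ± 0.18 and RRM2 0.34 ± 0.13 (FDR = 0.144). In the presence of R1881 0 members differed by edgeR (0.066% of all genes were higher and 0.144% lower) or by DESeq2. Of the 45, 36 had an unadjusted p under 0.05 (18.6% of all genes), 13 passed the FDR limit upward when the fold was left aside (1.63% of all genes), and the median difference was 0.26. Across the 45 genes the effects of the inhibitors had a Pearson r of 0.772 without R1881 and 0.642 with it, as a description of genes that are not independent.

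A list of 60 other genes of replication, its checkpoints and nucleotide supply, and a list of 25 mitotic genes, show where the 45 stand. R1881 raised 29 of the 60 at 24 h (9.81% of all genes) and 23 at 72 h (9.7%), with medians of 0.52 and 0.32. It lowered none (9.19% and 10.1% of all genes). By the mean of both experiments the highest were TICRR, an origin firing factor (3.47 ± 0.12 at 24 h), ASF1B, a histone chaperone (3.42 ± 0.11), and CLSPN, claspin of the replication checkpoint (3.24 ± 0.089). By the same mean the lowest were RNASEH2B, a subunit of ribonuclease H2 (-0.43 ± 0.059), SAMHD1, which breaks down dNTPs (-0.25 ± 0.043), and ATIC, of purine synthesis (-0.19 ± 0.036). These 3 were lower at an FDR under 0.01 and under the fold limit. All 25 mitotic genes rose with R1881 at 24 h and at 72 h (9.81% and 9.7% of all genes), with medians of 2.28 and 1.48. At 24 h they ranged from 1.21 ± 0.12 for PTTG1, securin, to 3.10 ± 0.16 for TTK, the spindle checkpoint kinase. All 25 also rose with SNX631 (median 0.99, 2.82% of all genes) and were higher in 72 h than in 24 h vehicle (median 1.59, 3.95%). With Senexin B 4 of 25 rose (median 0.40, 2.02% of all genes). In the presence of R1881, 1 of 25 rose with Senexin B (1.61% of all genes) and 6 of 25 with SNX631 (1.89%). Mitotic genes thus rose beside the members, and their part in the members' values was not tested.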

How the data were processed

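RNA of LNCaP cells was sequenced in 28 libraries, labelled by androgen state, treatment, time and replicate. The libraries of each time are called an experiment here, a word the labels do not use. The study describes the 24 h replicates as biological triplicates and the 72 h replicates as quadruplicates. The submitters' processing notes name FastQC, cutadapt 2.8, STAR 2.7.2b, featureCounts of Subread 2.0.3 and builds GRCh38.p13 and GRCm39, with a directional library kit. The values the authors deposited are estimated counts per gene, of which 16.9% of those above 0 are fractional. Per the file headers 2 added non-human entries had no counts and were left out. Sharing of reads between places can move genes that overlap others.

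Counts were rounded and tested with edgeR 4.0.16 in R 4.3.3 (quasi-likelihood F test, TMM, filterByExpr with a minimum count of 10 and total of 15, Benjamini-Hochberg adjustment over all genes tested). Each experiment was fitted with its 4 groups, and comparisons between experiments used all 28 libraries. SE is the log2 fold change divided by the square root of F. Thresholds were those of the study, and DESeq2 1.42.0 was an alternative. Spread between replicates was low (biological coefficient of variation 2.72% at 24 h and 2.38% at 72 h). Between pairs of replicates, chi-square per degree of freedom ran from 1.20 to 2.48, not far above the noise of counting alone. Every FDR and every count of groups without overlap rests on this spread, and covers no variation beyond these replicates. Libraries held 9846595 to 33809419 counts, and every member had at least 13 counts in each, so no floor was needed. The script was tested on simulated data with 200 changed genes.

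The members and lists were chosen with earlier results of these data known. Values by library are given for the 2 members of each of the 7 roles with the largest mean androgen effect, the member of all 45 with the smallest, the 4 with the largest mean inhibitor effect and the members called for an interaction. Of the other lists, the 3 highest and 3 lowest by mean androgen effect could be named. Alternatives were other scalings, filters and thresholds, DESeq2, the replicate number as a block and leaving out each library.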

Additional observations from a re-analysis of the deposited data

Results flagged for a closer look

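In the 72 groups of 4 libraries tested for an outlying library over the named members and the sum of all 45, 2 had one, and chance flags about 1 in 20 groups. TYMS stood at 27.75 CPM in replicate 1 of 72 h vehicle, where all 4 libraries read 27.7, 29.8, 29.9 and 29.8 CPM. MCM10 stood at 22.8 CPM in replicate 4 of SNX631, where all 4 read 27.3, 27.8, 28.1 and 22.8 CPM.

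The androgen effect differed between the experiments for 13 of the members given by library, each smaller at 72 h with 1 nM R1881 than at 24 h with 0.1 nM, on the log2 scale and by the edgeR test of the difference. Among origin licensing genes the difference was -1.99 for CDC6, -1.56 for ORC6, -1.14 for ORC1 and -0.72 for MCM2. It was -1.90 for MCM10 and -1.57 for CDC45, which activate the helicase. PRIM1 differed by -0.83, PCNA by -0.72, RFC3 by -0.62 and FEN1 by -0.92. RRM2 differed by -1.79, TYMS by -0.86 and UHRF1 by -1.91. The call of RFC3 ended without replicate 3 of 24 h vehicle (-0.57).

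The inhibitor effect without androgen was larger for SNX631 at 72 h than for Senexin B at 24 h for LIG1 (0.74) and TYMS (0.70). The effect of R1881 was smaller with Senexin B at 24 h for CDC6 (-0.84), RRM2 (-0.85) and UHRF1 (-0.81). It was smaller with SNX631 at 72 h for CDC6 (-0.60), CDC45 (-0.75), MCM10 (-0.77), RRM2 (-0.78), UHRF1 (-0.61) and ORC1 (-0.66). In the comparisons between experiments, time, dose, compound and experiment cannot be told apart.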

How the results depend on the processing

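The numbers of members that rose with R1881 (40 and 39 of 45) were 40 and 39 by DESeq2 and 40 to 41 and 38 to 39 when each library was left out, but 24 at 72 h with a fold limit of 2. With an FDR under 0.05, no fold limit and counting either direction, the counts were 27 for Senexin B alone (35.8% of all genes), 27 for Senexin B over R1881, 1 of them lower (33% of all genes), 45 for SNX631 over R1881 (42.8%), 6 and 22 for the interactions at 24 h and 72 h (4.51% and 12.7%), 36 for the androgen difference between experiments (13.2%), and 21 and 24 for the inhibitor differences without and with androgen (4.61% and 6%). With a fold limit of 2 they were 3 for Senexin B, 8 for SNX631, 0 for SNX631 over R1881 and 12 for R1881 over SNX631. They were 0 and 0 for the interactions and 7 for the androgen difference. For the inhibitor difference without androgen the count was 0, and for vehicle at 72 h against 24 h it was 8. No share of all genes was taken at a fold limit of 2, so counts at that limit cannot be set against one. The inhibitor difference without androgen (4 members) also moved with scaling and filter, to 2 with median-ratio size factors, to 8 with no filter on low counts and to 2 with a filter of at least 1 CPM, and was 2 to 6 when each library was left out. Scaling by library totals only gave 3 in place of 5 for SNX631 over R1881, where the median of all genes was -0.038 against -0.00524 with TMM. With library totals that median was -0.116 for R1881 at 72 h and -0.122 for R1881 over SNX631. With TMM these were -0.0139 and -0.0138. Leaving out each library gave 7 to 11 for Senexin B, 29 to 31 for SNX631, 4 to 7 for SNX631 over R1881, 3 and 5 to 6 for the interactions, 20 to 24 for the androgen difference and 25 to 27 for vehicle. ORC1 changed sign for Senexin B over R1881 (0.03 and not called) with library totals (-0.009703), without replicate 3 of R1881 (-0.096) and without replicate 2 of R1881 with Senexin B (-0.05819), in a range of -0.096 to 0.08813 when each library was left out. The cause of these changes was not tested. Of the values of single named members under the alternatives, 4651 kept their direction and side of the threshold, 83 ended a call, 100 gained one and 3 changed sign. Only values with an FDR under 0.01 as reported, or those of genes called for an interaction, were followed. Most alternatives left out 1 library. Much of this agreement was therefore set by the choice of values and alternatives. At 72 h against 24 h in vehicle, the call of RFC3 ended without replicate 3 of 24 h vehicle (0.58), that of CHAF1A ended without replicate 1 of 24 h or replicate 4 of 72 h vehicle (0.58 in each), and that of POLE2 without replicate 3 of 72 h vehicle (0.74, edgeR FDR = 0.0130) and with the replicate block (0.66, FDR = 0.0424).

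Replicate numbers are shared between groups, and these values do not settle whether they pair the libraries. Deviations of same-numbered libraries correlated by -0.0125 to 0.0796 at 24 h and -0.054 to 0.0733 at 72 h. Their median was 0.016 at 24 h, against -0.016 for libraries of different number, and -0.007 against 0.003 at 72 h. At 24 h 7 of 12 libraries correlated best with their own number, and at 72 h 3 of 16 did. With the replicate number as a block, the counts were 40 and 39 for R1881, 5 for the inhibitor difference without androgen and 27 for vehicle at 72 h against 24 h. The lowest count of any member was 13, for POLE2, and CDC45 had 18, 24 and 69 counts in the 24 h vehicle libraries. Whether depth limited the calls of such members was not tested. The experiments differ in time, androgen dose and compound together, and all libraries come from 1 cell line.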

Other observations

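By class of the other 60 replication genes, R1881 at 24 h (where 9.81% of all genes rose) raised 15 of 20 origin and fork proteins (median log2 1.14), 3 of 8 other polymerase subunits and primer removal genes (0.21), 7 of 27 nucleotide supply genes (0.43) and 4 of 5 chromatin genes (0.82). At 72 h (9.7% of all genes) the counts were 13 of 20, 2 of 8, 5 of 27 and 3 of 5. SNX631 without R1881 (2.82% of all genes) raised 8 of 20, 2 of 8, 1 of 27 and 2 of 5, and Senexin B (2.02% of all genes) 2 of 20, 0 of 8, 2 of 27 and 1 of 5. The differences between these classes were not tested.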
